A study of Mus musculus with 15 samples.

Results

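The cytochrome P450 genes are the enzymes through which the liver oxidises drugs, steroids, bile acid precursors, fatty acids and vitamin A, and they were followed here in rejecting hepatic and cardiac allografts of mice. Members were chosen by name alone: every gene whose current symbol begins with Cyp and a digit. This gave 80 genes, read by 108 probes, of 32171 genes or transcripts with a value on every array. The rule itself uses no measured value, although it was set with earlier results of these data known. Each gene was represented by its brightest probe over the 15 arrays, and 24 genes had more than 1 probe.

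The arrays came from 5 groups of 3. In the cardiac model a C57BL/10 (B10, H-2b) heart was placed in the abdomen of a CBA (H-2k) recipient and taken on postoperative day 5 (POD5). In the hepatic model a B10.BR (H-2k) liver replaced the liver of a B10.D2 (H-2d) recipient and was taken on POD5 or POD8. All mice were male, and the models were run without immunosuppression. Heart and liver controls are labelled as normal tissue, as in the methods of the study, while its results speak of isografts, so whether control organs had been transplanted is not settled here; their strain and the age of the mice are not given in the sources used here. RNA was taken from pieces of whole organ. In such bulk samples fewer cells of a type and less RNA per cell cannot be told apart.

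P450 enzymes hold a heme group, take electrons from P450 reductase in the endoplasmic reticulum or from ferredoxin in mitochondria, and insert an oxygen atom into their substrate. Families Cyp1, Cyp2 and Cyp3 act mostly on foreign compounds and steroids, Cyp4 enzymes hydroxylate the tails of fatty acids and leukotrienes, and the remaining families each carry out a fixed step in the metabolism of sterols, bile acids, retinoids or vitamin D. Most are made in hepatocytes, many in a zone around the central vein, and in the mouse several differ between the sexes under the control of growth hormone. Inflammation is known to lower many hepatic P450 transcripts.

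Levels below are log2 of the processed spot signal after quantile normalization within the organ, so a step of 1 is a doubling, and they are not comparable between probes. The liver expressed far more of the family than the heart. A probe counted as detected on an array where at least 0.5 of its spots were marked well above background. In this sense 67 of 80 genes were detected on all 3 liver control arrays, 70 in POD5 grafts and 69 in POD8 grafts, against 37 on all 3 heart control arrays and 31 in cardiac POD5 grafts. Across both organs 28 genes were detected on all 15 arrays, 20 on all 9 liver arrays and on no heart array, and 3 (Cyp11b2, Cyp2ab1 and Cyp4a29) on none. Among the livers, replicates varied least at POD8, with a median SD over members detected on all 3 arrays of 0.227, and most at POD5, with 0.457. Single genes reached an SD of 1.69 in liver controls (Cyp4a14), 2.12 at POD5 (Cyp8b1) and 1.61 at POD8 (Cyp7a1).

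The tissue labels held. The summed level of 8 hepatocyte markers lay between 19.7 and 19.9 on all 9 liver arrays, with no group apart from another. The sum rests mostly on the brightest markers, among them Alb and Fgb, whose values quantile normalization makes nearly equal on every liver array. It therefore cannot compare hepatocyte content between the liver groups. In the heart it lay between 10.2 and 13.4 on controls and between 9.1 and 9.94 in grafts, and Ahsg, a plasma protein made by hepatocytes, read 12.78, 10.05 and 13.33 on the 3 heart controls against 8.26 to 9.31 in the grafts. The markers Alb, Apoa1 and Ttr were above background on no heart array. The 8 cardiomyocyte markers summed to 19.6 or more on every heart array and to 10.2 or less on every liver array. T cell markers rose in both organs: 5 of 7 in liver grafts on each day and 7 of 7 in heart grafts, with Cd8a at 2.50, 2.61 and 2.61 in liver controls and 10.14 to 10.79 in liver POD5 grafts. Of 5 macrophage and 4 neutrophil markers none was called in the liver, although the macrophage list had a median difference of 1.25 at POD5 and 1.83 at POD8. These medians lean on control replicate 1, the lowest control for all 5 macrophage markers. Adgre1 read 9.48 there against 11.59 and 11.61, and Csf1r 9.14 against 11.15 and 11.11. The part of these cell type shifts in the P450 results was not tested.

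Against control, 11 of the 80 genes were lower in the liver at POD5, where 4.37% of all genes were called lower, and 2 were higher, where 5.88% of all genes were called higher. At POD8 only 3 were lower, with 3.09% of all genes, and 1 was higher, with 5.05% of all genes. A call is a limma test with a Benjamini-Hochberg adjusted p under 0.05 over all 32171 genes. The median difference of the 80 genes was -0.19 at POD5, where that of all genes was -0.07, and -0.06 at POD8, where that of all genes was -0.10. These medians moved with single arrays: at POD5 that of the 80 genes was -0.03 without POD5 replicate 3, which lay on a slide and scan day of its own among the livers, and -0.08 without control replicate 3, and at POD8 it ran from -0.13 without control replicate 1 to 0.01 without control replicate 3, with -0.09 without POD8 replicate 2 and -0.03 without POD8 replicate 1. In all 27 of the 80 genes (33.8%) had an unadjusted p under 0.05 at POD5, where 26.7% of all genes did. When each array was instead scaled to its 75th percentile, the counts were 24 lower and 3 higher at POD5 and 16 lower and 1 higher at POD8, where 23.8%, 6.56%, 29.9% and 6.02% of all genes were called, with the median of all genes at -0.43 and -0.53 and 78.4% and 83.2% of all calls lower, against 42.6% and 37.9% with quantile normalization. Liver control arrays were dimmer than graft arrays, with a 75th percentile of processed signal of 92.1 to 226 against 339 to 478.

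The POD5 calls sat close to the threshold. They numbered 4 to 14 when each array was left out in turn: 4 without POD5 replicate 1, 6 without POD5 replicate 3, 8 without POD8 replicate 1, 8 without control replicate 1, 5 without control replicate 2, and 9 to 14 without any other. Cyp2u1, Cyp4f15 and Cyp4a12a were called whichever array was left out. The POD5 livers lay on slides that held no liver control, and with the slide as a random block 5 of the 13 remained, all lower. With 3 arrays a group an exact permutation test of 1 gene cannot give a two-sided p below 0.1. The labels number the arrays of a group without naming animals, so p-values measure the spread between these samples, which may be technical.

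Cyp26a1, which breaks down retinoic acid and is itself a classical retinoic acid target, gave the largest rise of the family in the liver. It read 9.62, 9.20 and 9.78 on the controls, 11.39, 11.87 and 11.53 at POD5 and 12.84, 14.54 and 13.46 at POD8. The 3 groups stood apart, each above the last. The rise was 4.18-fold at POD5 (log2 difference 2.06 ± 0.41 SE, adjusted p = 0.0202 in limma) and 16.9-fold at POD8 (4.08 ± 0.41, adjusted p = 0.00166 in limma). The POD5 call was lost without POD5 replicates 1, 2 or 3 or control replicate 2, with adjusted p up to 0.0653 and differences of 1.88 to 2.18 over all 9 such runs. It was also lost with the slide as a random block, where the POD5 difference was 2.07 with limma adjusted p = 0.0796. At POD8 it was called whichever array was left out, and the 2 POD8 and 2 control arrays that shared 1 slide gave a difference of 4.28, a comparison in which 0 of all genes were called by limma. In the heart, where it was dim, the controls read 5.30, 4.12 and 4.44 and the grafts 3.65, 4.92 and 4.04, which overlapped.

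Promoter windows from RefSeq (build GRCm38.p6) were at hand for 60 of the 80 genes, and the stretch before the Cyp26a1 start is shown because of this response, beside that of Cyp26b1, the other measured retinoic acid hydroxylase. Both run 5′ to 3′ along the gene for the 250 bases before the start: Cyp26a1 at chr19:37697558-37697807 on the plus strand and Cyp26b1 at chr6:84593811-84594060 on the minus strand. Capitals mark a direct repeat of the half-site AGGTCA or AGTTCA with 5 bases between, the spacing best known for retinoic acid receptors, searched on both strands in its 4 spellings.
Cyp26a1: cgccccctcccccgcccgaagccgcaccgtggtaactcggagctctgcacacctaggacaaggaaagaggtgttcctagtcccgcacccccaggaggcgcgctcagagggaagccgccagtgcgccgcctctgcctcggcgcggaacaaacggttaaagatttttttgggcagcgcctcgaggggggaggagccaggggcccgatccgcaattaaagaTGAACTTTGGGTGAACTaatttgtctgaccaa
Cyp26b1: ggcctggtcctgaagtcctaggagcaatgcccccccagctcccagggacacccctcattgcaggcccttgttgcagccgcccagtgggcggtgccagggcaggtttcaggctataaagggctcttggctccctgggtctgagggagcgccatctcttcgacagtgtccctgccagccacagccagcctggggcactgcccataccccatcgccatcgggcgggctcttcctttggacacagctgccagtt
The match in Cyp26a1 lies on the opposite strand, where it reads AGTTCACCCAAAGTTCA, and spans bases 32 to 16 before the start. It was present in 11 of 32851 RefSeq promoter windows (0.0335%) and in 1 of the 60 P450 genes with a window. These letters were not in the Cyp26b1 window. A match is a description of sequence and not a measured binding site.

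Cyp26b1 read 7.71, 8.40 and 8.0 on the liver controls, 6.39, 7.71 and 7.57 at POD5 and 7.82, 9.34 and 8.54 at POD8. All POD5 values lay below the controls, by less than the rounding for the closest pair, the POD8 values overlapped them, and neither day was called (limma adjusted p = 0.32 and 0.525). Of the 3 measured vitamin D genes none was called in the liver. Cyp2r1, a vitamin D 25-hydroxylase, differed by -0.14 at POD5, Cyp27b1, which makes the active hormone, by -0.11, and Cyp24a1, which degrades it, was above background on no liver array.

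**Figure D1:**
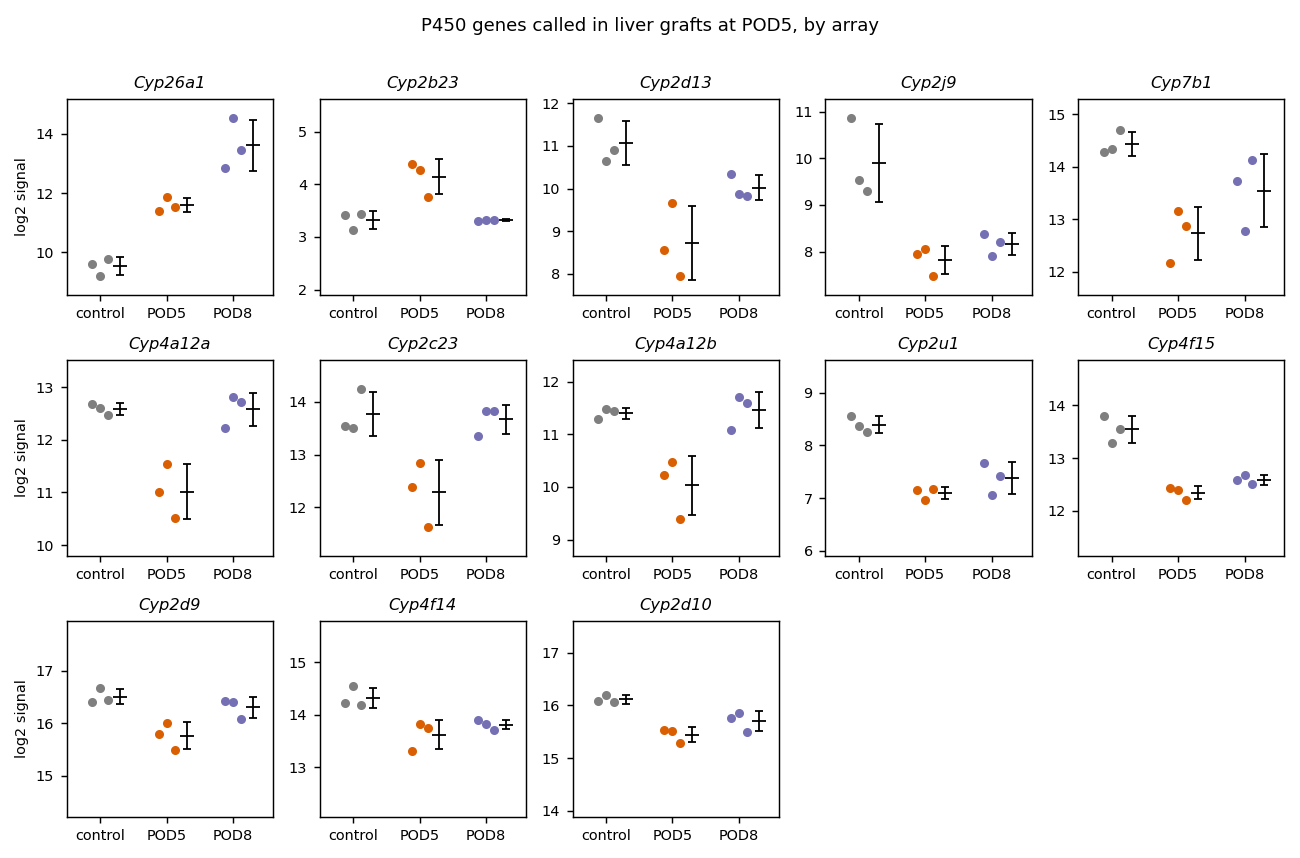
Log2 processed signal of the 13 P450 genes called in liver grafts at POD5 (vertical axis, a range of its own for each gene) on the 3 control, 3 POD5 and 3 POD8 arrays; points are arrays, and the black bar beside them is the mean ± SD (n = 3). Cyp26a1 climbs from 9.20 to 9.78 in controls to 12.84 to 14.54 at POD8, and Cyp4a12a and Cyp4a12b lie lower at POD5 than on the other arrays.

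The 5 genes listed as male-biased in mouse liver were all lower at POD5, where 4.37% of all genes were called lower. They are Cyp2d9, Cyp4a12a, Cyp4a12b, Cyp7b1 and Cyp2u1, and their median difference was -1.37, where that of all genes was -0.07. The list was chosen with earlier results of these data known, so its count is a description. All 5 stayed lower under 75th percentile scaling. Leaving out 1 array kept between 2 of them (without POD5 replicate 1, control replicate 1 or control replicate 2) and all 5, and the slide as a random block kept 3.

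Cyp4a12a, the main fatty acid hydroxylase of its subfamily in male liver, read 12.68, 12.60 and 12.47 on controls, 11.00, 11.54 and 10.505 at POD5 and 12.21, 12.81 and 12.71 at POD8. Every POD5 value lay below every other, and the POD8 grafts overlapped the controls. The fall was 2.97-fold at POD5 (log2 difference -1.57 ± 0.27 SE, limma adjusted p = 0.0131), while at POD8 the difference was -0.01 (95% interval -0.64 to 0.63). Cyp4a12b, its near-identical neighbour, behaved the same way: 11.28, 11.47 and 11.44 on controls, 10.22, 10.48 and 9.39 at POD5 and 11.08, 11.71 and 11.59 at POD8. Its fall at POD5 was 2.59-fold (-1.37 ± 0.29 SE, limma adjusted p = 0.0278), and the call was lost without POD5 replicate 1 or control replicates 1 or 2, where the adjusted p reached 0.0701. Probes for such close relatives can bind each other's transcripts, and the probe sequences were not used here, so the pair may not be 2 separate readings.

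Cyp7b1, an oxysterol hydroxylase of the alternative bile acid pathway, read 14.28, 14.33 and 14.69 on controls, 12.16, 13.15 and 12.88 at POD5 and 13.73, 12.78 and 14.13 at POD8. The POD5 livers lay below the controls without overlap (3.25-fold lower, -1.70 ± 0.38 SE, limma adjusted p = 0.0327), and the POD8 livers lay below the controls and overlapped the POD5 livers (-0.89, limma adjusted p = 0.215). Leaving out 6 of the 9 arrays one at a time ended the POD5 call, with adjusted p up to 0.101. POD5 replicates 1 and 3, POD8 replicate 1 and the 3 controls were the arrays concerned, and the difference ran from -1.91 to -1.42 over all 9 runs. Cyp2d9, a steroid hydroxylase, read 16.41, 16.68 and 16.44 on controls, 15.80, 16.01 and 15.49 at POD5 and 16.41, 16.41 and 16.07 at POD8, a fall of 1.67-fold at POD5 (-0.74 ± 0.17 SE, limma adjusted p = 0.0366). A further probe of Cyp2d9 gave -0.78 with limma adjusted p = 0.027. The call for the brightest probe was lost without POD5 replicates 1 or 3, POD8 replicates 1 or 2 or control replicates 1 or 2, with adjusted p up to 0.0984, and its difference under 75th percentile scaling was -1.46.

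Cyp2u1, which hydroxylates long-chain fatty acids, was the member of this list that stayed lower on both days. It read 8.56, 8.37 and 8.26 on controls, 7.16, 6.96 and 7.17 at POD5 and 7.66, 7.06 and 7.43 at POD8. No graft value reached a control value. The fall was 2.46-fold at POD5 (-1.30 ± 0.17 SE, limma adjusted p = 0.00503) and 2.02-fold at POD8 (-1.02 ± 0.17 SE, limma adjusted p = 0.0139), and within the shared slide it was -1.11 at POD8.

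None of the 11 measured genes listed as female-biased was called on either day, and their median difference was 0.59 at POD5. Cyp2b10 read 6.44, 7.28 and 7.65 on controls and 8.96, 8.80 and 7.92 at POD5, a difference of 1.43 that did not pass (limma adjusted p = 0.082). Cyp2b13 differed by 1.05, Cyp2b9 by 0.98 and Cyp2a4 by 1.15, with limma adjusted p from 0.123 to 0.236. Differences on the list ran from -1.03 to 1.43 at POD5. Cyp17a1 (means of 10.31 on controls and 9.29 at POD5), Cyp2g1 (-0.24) and Cyp2c40 (-0.05) went the other way, and Cyp39a1 differed by 0.03. Under 75th percentile scaling the median of the list was 0.12 and 1 gene was called higher.

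Of the 6 measured Cyp4f genes, which hydroxylate fatty acids and leukotrienes, 2 were lower at POD5 and 1 at POD8, where 4.37% and 3.09% of all genes were called lower. Cyp4f15 read 13.81, 13.28 and 13.54 on controls, 12.44, 12.39 and 12.20 at POD5 and 12.58, 12.68 and 12.50 at POD8. All 6 graft values lay below all 3 controls, with little spread. The fall was 2.3-fold at POD5 (-1.20 ± 0.15 SE, limma adjusted p = 0.00421) and 1.94-fold at POD8 (-0.96 ± 0.15 SE, limma adjusted p = 0.0109), and both calls held without any 1 array. A single fit of all 5 groups, which takes in heart controls of 5.84, 1.84 and 1.79, called neither. Cyp4f14, a leukotriene hydroxylase, read 14.22, 14.54 and 14.19 on controls and 13.30, 13.82 and 13.75 at POD5, a fall of 1.61-fold (-0.69 ± 0.17 SE, limma adjusted p = 0.0442). That call survived the loss of 1 array only for control replicate 3, with adjusted p up to 0.104 otherwise.

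The other Cyp4f genes were not called in the liver. Cyp4f18, known as a leukotriene hydroxylase of neutrophils, differed by -0.45, Cyp4f13 by -0.73, Cyp4f16 by 0.54 and Cyp4f39 by 0.49 at POD5. Among the Cyp4a genes, Cyp4a10, a target of PPARalpha, read 12.93, 12.25 and 11.67 on controls and 10.31, 11.50 and 9.22 at POD5. Its groups did not overlap, yet the difference of -1.94 (95% interval -3.42 to -0.47) did not pass (limma adjusted p = 0.101). Cyp4a14, another PPARalpha target, ran from 10.75 to 14.00 among the controls alone, and no difference was detectable at that spread.

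Of the 8 genes matched by symbol to a list of arachidonic acid epoxygenases, 1 was lower on each day. Of all genes, 4.37% were called lower at POD5 and 3.09% at POD8. Differences of the 8 ran from -2.08 to 1.54 at POD5. The lower gene was Cyp2j9, at 10.86, 9.54 and 9.29 on controls, 7.94, 8.04 and 7.48 at POD5 and 8.38, 7.90 and 8.21 at POD8. Both graft groups lay below the controls, and control replicate 1 stood above the other two. The fall was 4.22-fold at POD5 (-2.08 ± 0.40 SE, limma adjusted p = 0.0189) and 3.33-fold at POD8 (-1.74 ± 0.40 SE, limma adjusted p = 0.0415). Without POD5 replicate 1 or 3 the POD5 call was lost (adjusted p up to 0.0619), and the POD8 call was lost without any of the 3 POD5 arrays, any of the 3 POD8 arrays or control replicate 2 (adjusted p up to 0.146). Its relatives Cyp2j5, Cyp2j6, Cyp2j11 and Cyp2j13 differed by -0.05, 0.51, 1.54 and 0.28 at POD5 and were not called.

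Cyp2c23, an epoxygenase that the list holds under its earlier symbol Cyp2c44, was not counted among the 8. It was the only 1 of 11 measured Cyp2c genes called in the liver. It read 13.54, 13.51 and 14.25 on controls, 12.39, 12.83 and 11.62 at POD5 and 13.35, 13.83 and 13.83 at POD8. The POD5 livers lay below both other groups, which overlapped (2.8-fold lower, -1.49 ± 0.34 SE, limma adjusted p = 0.0357). The call was kept in only 1 of 9 runs without an array, that without POD5 replicate 2, with adjusted p up to 0.0953 in the rest.

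Of the 7 measured Cyp2d genes 3 were lower at POD5, where 4.37% of all genes were called lower. Differences of the 7 ran from -2.35 to -0.34, where the median of all genes was -0.07. Probes for close relatives can bind each other's transcripts, so the 7 may not be separate readings. Cyp2d13 read 11.66, 10.65 and 10.90 on controls, 8.55, 9.66 and 7.95 at POD5 and 10.35, 9.88 and 9.82 at POD8. This was the largest called fall of the family (5.08-fold at POD5, -2.35 ± 0.45 SE, limma adjusted p = 0.0187), and POD8 livers lay between the other groups. Cyp2d13 was read through a transcript that RefSeq records as non-coding. Without POD5 replicate 1 its limma adjusted p was 0.071. Cyp2d10 read 16.07, 16.20 and 16.06 on controls and 15.53, 15.52 and 15.29 at POD5, a small and even fall of 1.59-fold (-0.67 ± 0.13 SE, limma adjusted p = 0.0207). It was lost without POD5 replicate 1 or 3 or control replicate 2 (adjusted p up to 0.0596), and a dimmer probe of Cyp2d10 gave -0.56 with limma adjusted p = 0.416. Under 75th percentile scaling the Cyp2d10 difference was -1.29. Cyp2d12, Cyp2d22, Cyp2d26 and Cyp2d34 differed by -0.75 to -0.34 and were not called, and no Cyp2d gene was called at POD8.

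Cyp2b23 was the second gene called higher at POD5, at the edge of detection. It read 3.41, 3.13 and 3.44 on controls, where it was not well above background on any array, and 4.39, 4.27 and 3.76 at POD5, where 2 of 3 arrays detected it. Set against the lowest signal detected on the control arrays, the rise was at least 1.23-fold (limma adjusted p = 0.03), and it returned to 3.30, 3.33 and 3.33 at POD8. With background correction by normexp the difference was 0.08.

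None of the 7 genes on the pericentral list, which holds several drug-metabolising enzymes, was called on either day. Cyp2e1, which oxidises ethanol and small solvents around the central vein, read 15.31, 15.57 and 15.96 on controls, 14.50, 15.22 and 14.03 at POD5 and 14.93, 14.72 and 15.02 at POD8. Both graft groups lay below the controls, but limma adjusted p was 0.0792 at POD5 (-1.03, 95% interval -1.74 to -0.31) and 0.207 at POD8 (-0.72). Cyp3a11, a target of the pregnane X receptor, differed by 1.04 at POD5 and 0.97 at POD8 (limma adjusted p = 0.163 and 0.211). Cyp1a2 read 12.73 to 13.28 on controls and 12.31 to 13.22 at POD5, a difference of -0.25 with a 95% interval of -0.88 to 0.38.

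Of the 7 measured sterol and bile acid genes Cyp7b1 was the only 1 called at POD5, and none was called at POD8. Cyp7a1, the rate-limiting enzyme of the classical pathway, read 8.11, 10.27 and 10.12 on controls, 10.86, 10.11 and 9.09 at POD5 and 7.27, 5.88 and 9.09 at POD8. The POD8 difference of -2.09 did not pass (limma adjusted p = 0.23, 95% interval -4.26 to 0.09), although the SFC statistic of the study, which borrows its spread from probes of like brightness, gave a Bonferroni-adjusted p of 0.0014. Cyp8b1, which sets the cholic acid share, read 7.52, 7.77 and 8.26 on controls, 4.0, 8.08 and 5.0 at POD5 and 7.52, 6.87 and 4.61 at POD8. Its POD5 SD of 2.12 was close to the POD5 difference of -2.16, which was not called. Cyp27a1 and Cyp51 differed by -0.25 and -0.09 at POD5.

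**Figure D2:**
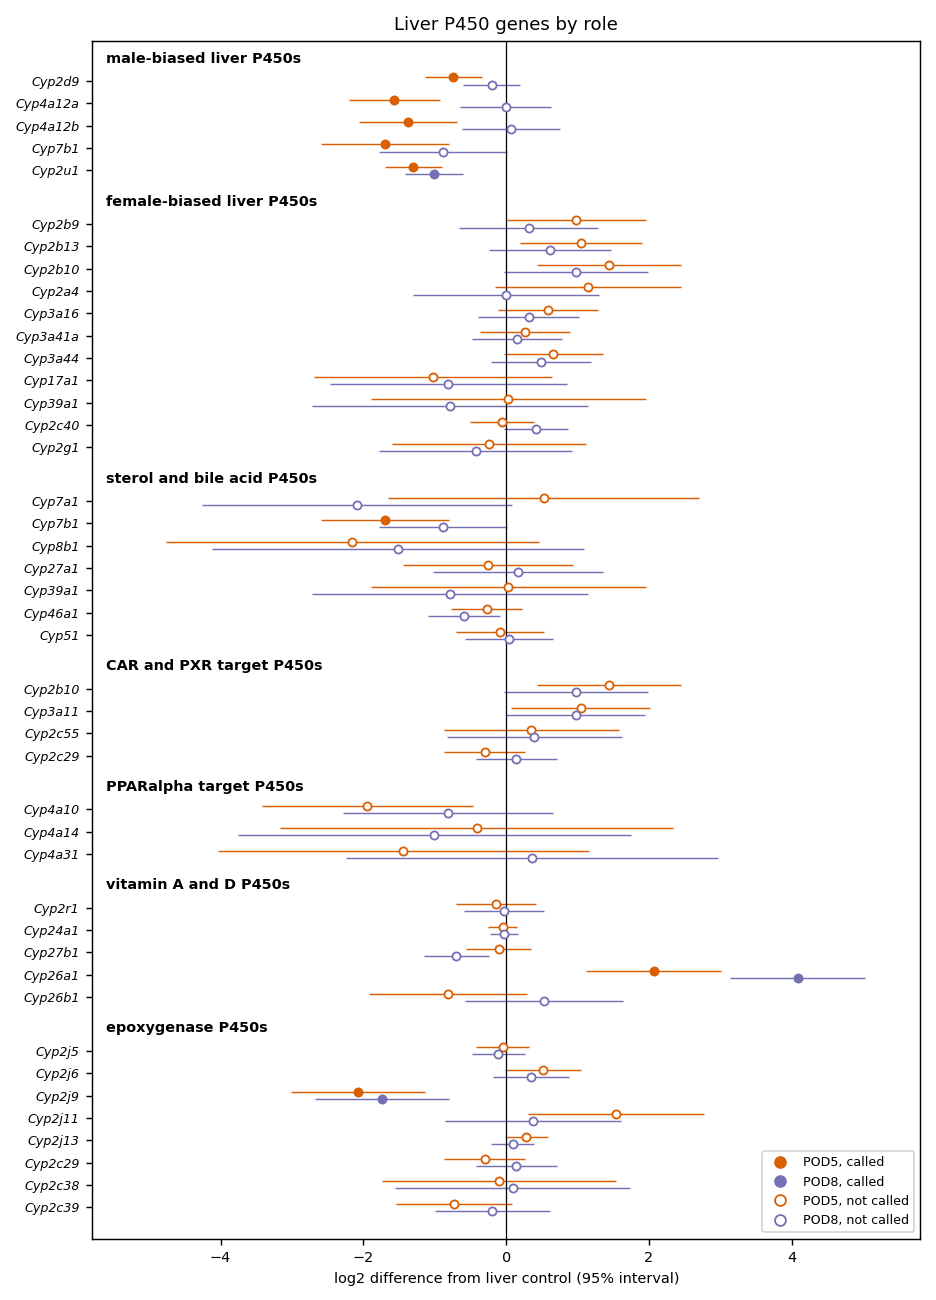
Log2 difference from liver control (horizontal axis, with 95% intervals from limma) at POD5 and POD8 for the P450 genes matched by symbol to 7 roles. Filled points passed an adjusted p under 0.05, and a gene on 2 lists appears under both. All 5 male-biased genes are filled at POD5, and Cyp26a1 is the point farthest to the right on both days. The days share their control arrays.

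Between POD5 and POD8 no P450 gene was called lower or higher by limma, where 0% and 0.00933% of all genes were, and 12 (15%) had an unadjusted p under 0.05, where 8.22% of all genes did. In 8 genes of those 12 the POD8 value was the higher. Cyp4a12a differed by 1.56 (95% interval 0.93 to 2.20, limma adjusted p = 0.272), Cyp26a1 by 2.01 (1.07 to 2.96, adjusted p = 0.344), Cyp4a12b by 1.43 (0.75 to 2.12, adjusted p = 0.349) and Cyp2c23 by 1.39 (0.59 to 2.20, adjusted p = 0.411). In these 4 genes every POD8 array lay above every POD5 array. That held for 13 of the 80 genes and 8.85% of all genes. The reverse held for 8 of the 80 and 11.1% of all genes. Cyp7a1 lay lower at POD8, by 2.61 with limma adjusted p = 0.555. The SFC statistic called 9 genes between the days: 4 higher at POD8, where it called 0.239% of all genes (Cyp26a1, Cyp2c23, Cyp4a12a and Cyp4a12b) and 5 lower, where it called 0.392% (Cyp2a4, Cyp2a5, Cyp2j11, Cyp4a14 and Cyp7a1). Against controls it called no P450 gene at POD5 in the liver, where it called 0.0964% of all genes lower and 0.867% higher. At POD8 it called 1 lower and 1 higher, where the shares of all genes were 0.106% and 0.939%. In the heart it called 1 lower (Cyp3a16, above background on no heart array) and none higher, where they were 0.264% and 0.348%.

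The genes that serve or control the P450 enzymes were read from 3 lists. None of the 7 electron donors was called on either day: Por, the reductase that serves the microsomal enzymes, differed by -0.06 at POD5, and Fdx1, the mitochondrial ferredoxin, by -0.28. Of 9 heme synthesis genes 3 were lower at POD5 (Alas2, Urod and Ppox), where 4.37% of all genes were called lower. At POD8 1 was lower (Urod), where 3.09% of all genes were. Alas2, the erythroid form of the first enzyme, read 13.04, 13.01 and 12.61 on controls and 10.62, 11.02 and 11.60 at POD5, while Alas1, the form of hepatocytes, differed by 0.36 (limma adjusted p = 0.74). Among the 12 measured regulators Ppara was lower at POD5 (-1.25, limma adjusted p = 0.019) and Nr1i3, the constitutive androstane receptor, at POD8 (-1.31, limma adjusted p = 0.0165); Hnf4a, Stat5b and Nr1i2 differed by -0.10, -0.17 and -0.06 at POD5.

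Zonal genes outside the family were read beside them. Of 6 pericentral genes that are not P450s, 1 was lower at POD5 and 4 at POD8, where 4.37% and 3.09% of all genes were called lower. Among them was Lgr5, a target of Wnt signalling. It read 9.51, 8.26 and 7.86 on controls, 6.73, 6.91 and 6.64 at POD5 and 6.78, 6.63 and 6.41 at POD8. Of 6 periportal genes 1, Arg1, was higher at POD5 (1.12, limma adjusted p = 0.0257), where 5.88% of all genes were called higher. None was called at POD8.

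In the heart the family moved in both directions at POD5, with 14 of 80 genes lower, where 14.8% of all genes were called lower, and 14 higher, where 14.9% of all genes were called higher. Those are shares of 17.5% each, near the background. The median of the 80 genes was 0.02 and that of all genes 0.03. The 3 controls lay on 1 slide and the 3 grafts on another, scanned on another day, so slide, scan day and graft cannot be told apart. Scaling by the 75th percentile gave 14 lower and 38 higher, where 12.6% and 40.7% of all genes were called, with the median of all genes at 0.57 and 23.6% of all calls lower, against 49.8% with quantile normalization. The count ran from 19 (without control replicate 1 or 3) to 34 when 1 array was left out, and 18 of the 28 genes were called in all 6 of those runs.

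Cyp26b1, the retinoic acid hydroxylase that did not pass in the liver, fell furthest in the heart. It read 8.16, 7.76 and 7.40 on controls and 5.01, 5.58 and 4.70 in grafts, a 6.41-fold fall without overlap (-2.68 ± 0.31 SE, limma adjusted p = 0.004). Cyp2d12 read 6.70, 6.43 and 6.64 on controls and 4.24, 4.99 and 4.67 in grafts (3.87-fold lower, limma adjusted p = 0.00364). Cyp2d22 fell 2.99-fold, with only 1 of 3 graft arrays above background, and its dimmer probe gave -3.25 on the log2 scale. Normexp background correction gave smaller differences for these 3 genes, all still called: -1.40 for Cyp26b1, -0.89 for Cyp2d12 and -0.75 for Cyp2d22.

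Cyp39a1, an oxysterol hydroxylase, read 9.51, 9.20 and 9.37 on controls and 7.48, 8.12 and 7.23 in grafts, a 3.37-fold fall (limma adjusted p = 0.00767), and its other probe fell by 1.15 on the log2 scale. Cyp1b1, a target of the aryl hydrocarbon receptor found in vessels and stroma, fell from 11.74, 11.25 and 11.67 to 9.82, 10.45 and 9.88 (2.84-fold, limma adjusted p = 0.00894), and Cyp4b1 fell 2.91-fold. Ahr itself was lower in these hearts by 1.71 on the log2 scale (means of 10.04 in controls and 8.33 in grafts). Cyp2s1, an epithelial enzyme, read 9.28, 7.66 and 9.24 on controls and 7.16, 6.58 and 7.04 in grafts, and its call (limma adjusted p = 0.0478) was kept only without control replicate 2. The keratin Krt19 was also lowest on control replicate 2, at 10.85, 8.81 and 11.01, against 7.05 to 8.0 in grafts, and its part was not tested.

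The Cyp2j genes, known in the heart as arachidonic acid epoxygenases, were lower in 3 of 5 cases, where 14.8% of all genes were called lower: Cyp2j9 by 1.5, Cyp2j13 by 1.12 and Cyp2j6 by 0.90 on the log2 scale (2.84-fold, 2.17-fold and 1.86-fold), each called in all 6 runs without 1 array. Cyp2j11 differed by -0.06 and was not called, and Cyp2j5 was above background on no heart array. Cyp2j6 read 9.26, 9.21 and 9.39 on controls and 8.35, 8.61 and 8.21 in grafts. Another probe of Cyp2j6 fell by 2.50, but a dim probe of Cyp2j13, detected on 2 graft arrays and on no control, went the other way by 2.0 with limma adjusted p = 0.00196. Cyp2d9 (-1.38), Cyp4f14 (-1.26), Cyp19a1 (-1.03) and Cyp7b1 (-0.97) were the remaining lower genes. A second probe of Cyp2d9 gave 0.00, Cyp4f14 was not well above background on any graft array (at least 1.02-fold lower), and Cyp19a1, aromatase, was detected on 1 control array only. With normexp correction Cyp4f14 gave -0.22, no longer called, and Cyp19a1 -0.21. The Cyp7b1 call was kept in 1 of 6 runs without 1 array, with limma adjusted p up to 0.1455.

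Cyp4a10 rose most in the heart, from 6.29, 6.15 and 6.49 to 8.51, 9.35 and 8.50 (5.55-fold, 2.47 ± 0.27 SE, limma adjusted p = 0.00354). With normexp correction the rise was 1.85, and a dimmer probe of Cyp4a10, detected on no heart array, gave -0.27. Cyp2w1 rose from 3.64, 3.62 and 3.16 to 5.51, 6.14 and 5.78 (5.06-fold, limma adjusted p = 0.00245). It was above background on 2 of 3 controls, and gave 0.55 with normexp background correction.

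Of the 4 P450 genes listed as known in leukocytes, 2 were higher, 1 (Cyp1b1, above) was lower and Cyp11a1 was not called (0.65, limma adjusted p = 0.317). Of all genes, 14.9% were called higher and 14.8% lower. Cyp4f18 rose from 10.46, 10.42 and 10.60 to 12.49, 12.28 and 12.68, with little spread on either side (3.97-fold, 1.99 ± 0.13 SE, limma adjusted p = 0.00126). Cyp27b1, the vitamin D activating enzyme that activated macrophages also make, rose from 5.87, 5.73 and 5.87 to 6.89, 7.65 and 6.92 (2.52-fold, limma adjusted p = 0.0129), and its call was lost without control replicate 3 (adjusted p = 0.0503), while normexp correction gave 0.70. Beside them the summed T cell markers went from 9.53 to 10.1 in controls to 14.1 to 14.6 in grafts. The summed neutrophil markers lay at 15.7 to 16.4 and 13.7 to 15.7, and the summed macrophage markers at 14.9 to 15.5 and 15.1 to 15.4. Whether these cells carried the P450 differences was not tested.

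The other higher genes in the heart were Cyp17a1 (1.55), Cyp2c37 (1.39), Cyp2c70 (1.36), Cyp3a11 (1.33), Cyp46a1 (1.31), Cyp4f16 (1.24), Cyp3a41a (1.03), Cyp2b23 (1.02), Cyp4f13 (0.82) and Cyp4f39 (0.70). With Cyp4f18 this made 4 of 6 Cyp4f genes higher and 1, Cyp4f14, lower, where 14.9% and 14.8% of all genes were called. Cyp46a1, the cholesterol hydroxylase of neurons, read 5.58, 5.66 and 5.69 on controls and 6.85, 7.15 and 6.85 in grafts, an even rise of 2.47-fold (limma adjusted p = 0.00215). Cyp17a1, a steroid hydroxylase, read 8.74, 8.68 and 8.44 on controls and 9.85, 10.95 and 9.70 in grafts, and its call held in 2 of 6 runs without 1 array. Cyp2b23 was above background on no heart array and Cyp3a41a on 1 of 3 in each group, so these 2 rises lie at the limit of detection. With normexp correction Cyp2c37, Cyp3a11, Cyp3a41a and Cyp2b23 gave 0.32, 0.31, 0.15 and 0.07, the last 2 not called. Among the 4 adrenal cortex markers, read because steroid P450s are made there, Nr5a1, Mc2r and Hsd3b1 were higher and Star was lower; the ranges of their sum, 10.3 to 11.1 and 10.4 to 10.8, overlapped.

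**Figure D3:**
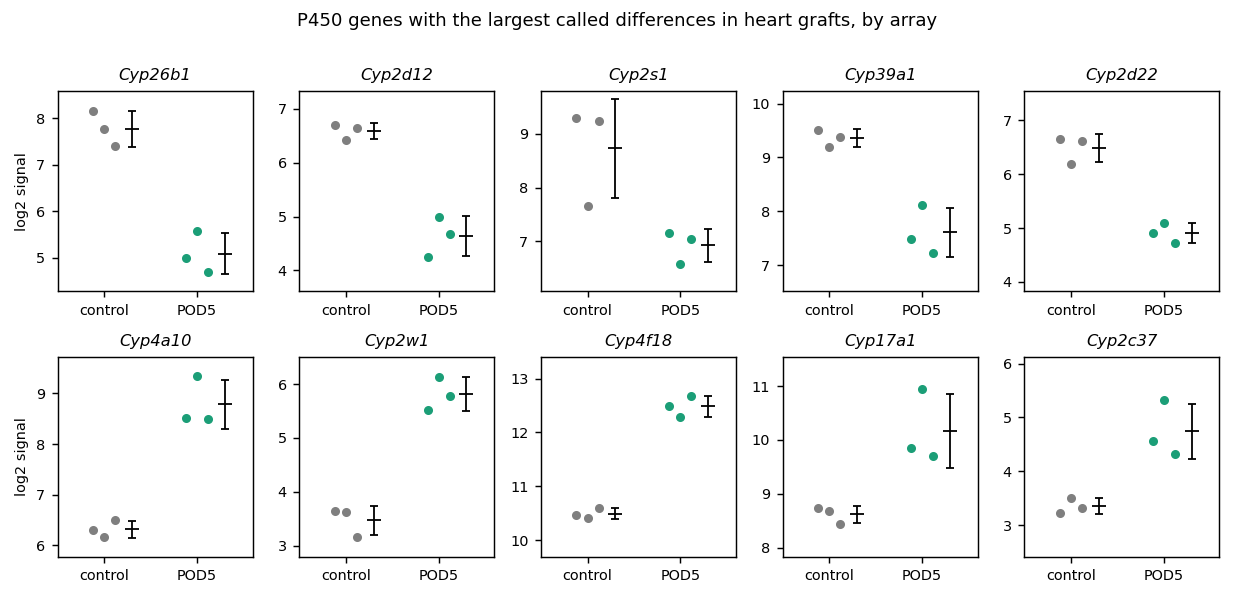
Log2 processed signal (vertical axis, a range of its own for each gene) on the 3 control and 3 POD5 heart arrays for the 5 genes with the largest called falls (top row) and rises (bottom row); points are arrays and the black bar is the mean ± SD (n = 3). No gene's groups overlap, and Cyp2s1 has a control array at 7.66 below the other two.

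Some P450 signal was uneven among the heart controls. Cyp2e1 read 10.24, 1.38 and 7.26 there and Cyp2f2 7.2, 1.74 and 2.59, with 5.87, 4.40 and 7.02 and with 1.81, 1.71 and 5.08 in grafts. Neither was called, and control replicate 2, lowest for both, was also lowest for Ahsg. Alb, Apoa1 and Ttr, further hepatocyte markers, were above background on no heart array. Tat, another, read 6.15, 6.06 and 6.0 on controls and 7.60, 8.09 and 7.63 in grafts. The part of this unevenness in other heart differences was not tested.

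Whether the organs differed was tested directly at POD5 as the liver difference minus the heart difference, and 19 genes passed: 14 lower, where 9.53% of all genes were called lower, and 5 higher, where 9.84% of all genes were called higher. The widest gap was Cyp4a10 (-4.42 ± 0.76 SE, limma adjusted p = 0.0029), at -1.94 in the liver and 2.47 in the heart. Cyp4a12a (-2.55), Cyp4f18 (-2.44), Cyp2c37 (-2.30), Cyp2w1 (-2.18) and Cyp2d13 (-2.17) followed. On the other side stood Cyp26a1 (2.48 ± 0.63 SE, limma adjusted p = 0.0184), Cyp1b1 (1.96), Cyp4b1 (1.96), Cyp2j6 (1.41) and Cyp2j13 (1.40). In 16 of the 19 genes the call held without any 1 of the 15 arrays, and it was lost in some runs for Cyp21a1, Cyp2b19 and Cyp2c70. Scaling by the 75th percentile gave 34 lower and 7 higher, where 36.6% and 7.83% of all genes were called, with the median of all genes at -0.77.

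Some calls were shared by the organs. Cyp2d9, Cyp2j9, Cyp4f14 and Cyp7b1 were lower in both, which is 36.4% of the 11 lower genes of the liver and 28.6% of the 14 of the heart. Over all genes, 31.1% of those called lower in the liver and 9.18% of those called lower in the heart were lower in both. Without 1 array, Cyp2j9 was still called in 6 of 6 heart runs and 7 of 9 liver runs. Cyp7b1 was called in 1 of 6 and 3 of 9, Cyp4f14 in 3 of 6 and 1 of 9, and Cyp2d9 in 6 of 6 and 3 of 9. A second probe of Cyp2d9 gave 0.00 in the heart, and Cyp4f14 was above background on no heart graft array. Cyp2b23, dim in both, was higher in both. No gene was called in opposite directions. Cyp26 genes divided by organ: Cyp26a1 rose in the liver and did not pass in the heart, and Cyp26b1 fell in the heart and did not pass in the liver, though for Cyp26b1 the test between the organs missed the threshold (1.87, limma adjusted p = 0.0505).

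**Figure D4:**
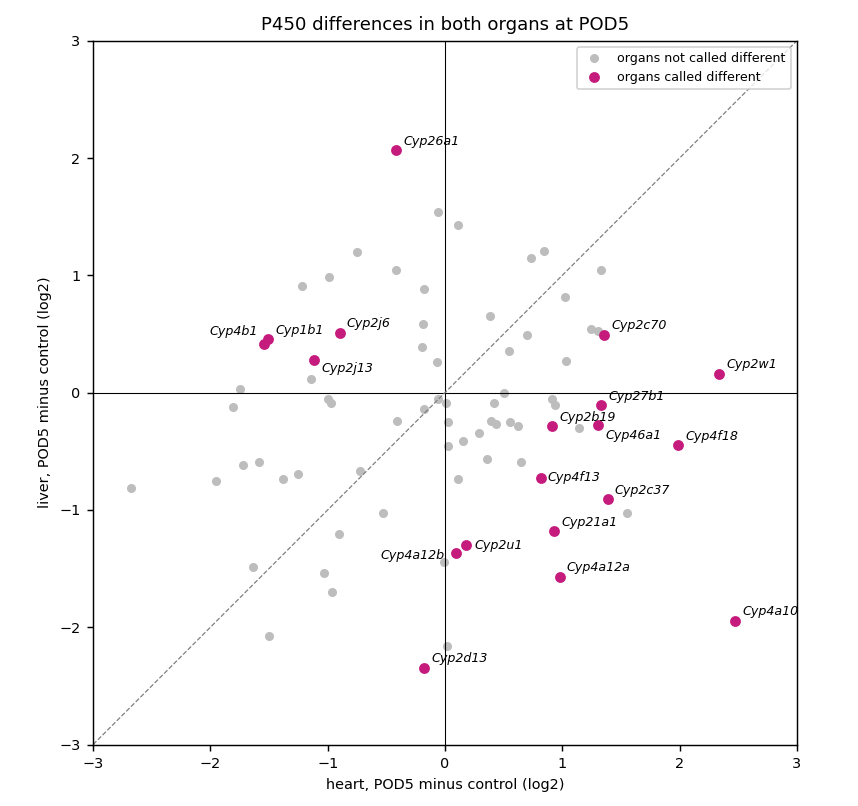
Log2 difference of POD5 grafts from control in the heart (horizontal axis) and the liver (vertical axis) for the 80 P450 genes, 1 point a gene; the dashed line marks equal differences and named points are the 19 genes whose differences were called unlike between the organs. Cyp4a10 lies at 2.47 and -1.94, and Cyp26a1 stands alone at the top left with -0.42 and 2.06.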

How the data were processed

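Cy3-labelled RNA of each sample was read on its own single-colour Agilent mouse array. The deposited files hold scanner output: the intensity of each spot, with the processed signal already corrected for background by the Feature Extraction software and not normalized between arrays by the authors; flags and the median spot and local background intensity stand beside it. Spots marked as outliers (47 to 113 an array) were dropped, spots of a probe averaged on the log2 scale, and the liver and heart arrays quantile normalized apart. Of 41174 probes, 26690 (64.8%) matched a RefSeq symbol (GRCm38.p6) by transcript; the rest kept the file's name. limma 3.58.1 in R 4.3.3 was fitted over 32171 genes, in 1 fit of the 3 liver groups, 1 of the heart groups and, for the test between organs, 1 of all 15 arrays; the Benjamini-Hochberg threshold was 0.05.

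Alternatives were other normalizations (75th percentile included), normexp correction with offset 50, a filter on dim probes, all probes, the methods' SFC statistic (bin of 1000) and t-test, Bonferroni adjustment, a trended prior, blocks for slide, scan day and replicate number, and each array left out. A comparison of the POD8 and control arrays that shared a slide was added after seeing the data. The SFC statistic and t-test of the methods were run as alternatives to limma.

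Members, lists and the rule for named genes (per direction, the 8 largest called differences without overlap in the liver and 5 in the heart, and members of the lists) were chosen with earlier results of these data known. Further called genes were named to complete the counts. No 2 arrays held identical values, arrays of a group correlated at 0.962 to 0.993, and 52.5% to 70.4% of probes were well above background; with 3 arrays a group, their number limits the precision. The fitting was tested on simulated data. Figures were drawn with matplotlib 3.10.9. Probe and protein sequences were not used here.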

Additional observations from a re-analysis of the deposited data

Results flagged for a closer look

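For 19 P450 genes the difference between grafts and controls at POD5 was itself called unlike between liver and heart. The values below are the liver difference minus the heart difference on the log2 scale, from limma. The liver difference was the higher for Cyp26a1 (2.48), Cyp1b1 (1.96), Cyp4b1 (1.96), Cyp2j6 (1.41) and Cyp2j13 (1.40). It was the lower for Cyp4a10 (-4.42), Cyp4a12a (-2.55), Cyp4f18 (-2.44), Cyp2c37 (-2.30), Cyp2w1 (-2.18), Cyp2d13 (-2.17), Cyp21a1 (-2.11), Cyp46a1 (-1.58), Cyp4f13 (-1.54), Cyp2u1 (-1.48), Cyp4a12b (-1.47), Cyp27b1 (-1.44), Cyp2b19 (-1.20) and Cyp2c70 (-0.87). Cyp2d13, Cyp4a12b and Cyp21a1 were above background on no heart array, so their heart differences are of signals at the limit of detection. The organs also differ in donor and recipient strain and in how the graft was placed, which cannot be told apart from the organ.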

How the results depend on the processing

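The 13 P450 calls at POD5 in the liver numbered 5 with quantile normalization within the comparison, 27 with 75th percentile scaling, 5 with the slide as a random block, and 0 with the SFC statistic, with the methods' t-test after Benjamini-Hochberg or Bonferroni adjustment and with limma after Bonferroni adjustment, where 27 had an unadjusted limma p under 0.05. Leaving out 1 array gave 4 to 14. The 4 calls at POD8 numbered 17 with 75th percentile scaling, 2 with the SFC statistic (1 of them among the 4) and 0 with the methods' t-test under either adjustment, with limma after Bonferroni adjustment and within the shared slide, and 3 to 6 without 1 array. Between POD8 and POD5 the SFC statistic gave 9 and every run without 1 array gave 0, as the fit over all arrays did. In the heart, against 28 calls, 75th percentile scaling gave 52 (27 of them shared), and the SFC statistic gave 1, Cyp3a16, which is none of the 28. Cyp3a16 was above background on no heart array, at 2.14, 1.41 and 1.41 in grafts and 1.65, 2.02 and 1.85 on controls. The heart count was 0 with the methods' t-test or limma after Bonferroni adjustment, and 19 to 34 without 1 array. The 19 differences between organs numbered 41 with 75th percentile scaling, 0 with limma after Bonferroni adjustment, and 16 to 21 without 1 array. In the heart Cyp2j13 turned to 2.0 where all probes entered the fit, through its dim probe. The cause was not tested.

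The replicate numbers did not pair the samples, since deviations of same-numbered arrays correlated at -0.13 to 0.06. With the replicate block the liver POD5 count was 8, the POD8 count 3, the heart count 20 and the count between organs 19. With 3 arrays a group and control livers dimmer than grafts, small differences of dim genes may have been missed, which was not tested.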
